A study of Homo sapiens with 3 samples.

Results

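The early genes described here are 10 transcription factors and response genes of the EGR, KLF, IER and MYC families: EGR1, EGR2, EGR3, KLF2, KLF4, KLF6, KLF10, IER2, IER3 and MYC. They were chosen by gene symbol, and all 10 were among the 17576 genes of the deposited table. RNA was sequenced from LX-2, an immortalised line of human hepatic stellate cells, the cells behind most scar tissue in liver fibrosis. The 3 libraries were all of cells treated for 48 h, with the vehicle DMSO, with the cytokine TGF-b1 (transforming growth factor beta 1), or with TGF-b1 together with 10 μM DP. DP is a natural small molecule according to the study's title. No library had DP without TGF-b1. Below, the DP library, or a level with DP, is always that of TGF-b1+DP. All cells were of the same line, and the labels give a medium with 10% fetal bovine serum. The dose of TGF-b1, the order of additions and any serum starvation were not given in the sources used here. Each group was a single library, so no difference below has a replicate check or a p-value, and every comparison is between libraries.

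Immediate early genes are switched on within minutes of a stimulus such as serum, a growth factor or a cytokine, without the need for new protein. Many of their transcripts are short-lived, so their level follows recent signalling through ERK, SRF, NF-kB and SMAD proteins. The EGR proteins are zinc finger factors that bind GC-rich sites, and the KLF proteins are zinc finger factors that bind GC boxes and related CACCC elements. MYC binds DNA with its partner MAX and drives genes of growth and ribosome making. In stellate cells and fibroblasts, KLF6, KLF10, EGR1 and EGR2 have all been studied for their ties to TGF-beta and matrix genes. All libraries were taken at 48 h, long after the first wave of such a response, so the values are levels in cells kept under the treatment.

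Promoter sequence is shown for EGR1 and EGR2, since EGR2 had the largest difference of any member between TGF-b1 and DMSO, its paralog EGR1 stayed within the threshold, and both carried the serum response motif. Each run is the 250 bases before a RefSeq transcript start (build GRCh38.p14), read 5′ to 3′ on the gene's strand. EGR1 lies at chr5:138465229-138465478 on the plus strand. EGR2 has 3 listed starts, and the one with a match lies at chr10:62816367-62816616 on the minus strand. Capitals mark CArG boxes, the binding element of SRF, and the letters TGACG or their complement, the core letters of the cAMP response element.
EGR1: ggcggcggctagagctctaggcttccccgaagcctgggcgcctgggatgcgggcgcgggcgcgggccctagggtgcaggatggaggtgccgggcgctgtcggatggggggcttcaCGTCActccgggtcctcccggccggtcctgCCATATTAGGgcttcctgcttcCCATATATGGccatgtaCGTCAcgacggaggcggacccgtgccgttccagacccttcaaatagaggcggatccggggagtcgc
EGR2: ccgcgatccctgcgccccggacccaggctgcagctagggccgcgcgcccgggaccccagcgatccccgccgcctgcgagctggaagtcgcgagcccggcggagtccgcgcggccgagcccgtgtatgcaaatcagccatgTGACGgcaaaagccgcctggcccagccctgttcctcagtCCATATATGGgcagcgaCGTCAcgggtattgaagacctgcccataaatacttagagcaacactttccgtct

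EGR1 held 2 CArG boxes in this window and EGR2 held 1, and the second box of EGR1 had the same 10 letters as that of EGR2. The boxes of EGR1 began 105 and 83 bases before the start, and the box of EGR2 71 bases before it. Each gene also held 2 such cores of the cAMP response element, which KLF4 held 2 times and IER2 1 time in their windows, so that 4 of the 8 windows of the members had one. A CArG box was present in 2 of the 8 windows of the members and in 1.16% of the 35116 RefSeq windows of this length. TGACG on either strand was in 21.2% of the latter. The windows shown were picked because they held the CArG box, so these shares are background and test nothing.

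RefSeq windows were found for 6 of the 10 members, 8 windows in all, with 3 starts for EGR2. Beside EGR1 and EGR2, the windows were those of KLF2, KLF4, KLF6 and IER2. Both strands were searched. The GC box GGGCGG, bound by SP and KLF factors, was in 6 of the 8 windows and in 42.6% of all windows. The EGR site GCGGGGGCG was in the windows of KLF2 and KLF6, against 4.72% of all windows, and in both it overlapped a GC box. The E-box CACGTG, which MYC and MAX bind, was in 3 windows, those of KLF4, KLF6 and one start of EGR2, against 6.34% of all. The ETS core CCGGAA was in the window of IER2, against 14.5% of all. The AP-1 site TGANTCA, the TATA box TATAAA, the SMAD palindrome GTCTAGAC and the kappaB site had no match in the 8 windows, against 6.57%, 10.7%, 0.182% and 5.21% of all windows. A match describes letters in the window and does not show that a factor was bound.

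**Figure D1:**
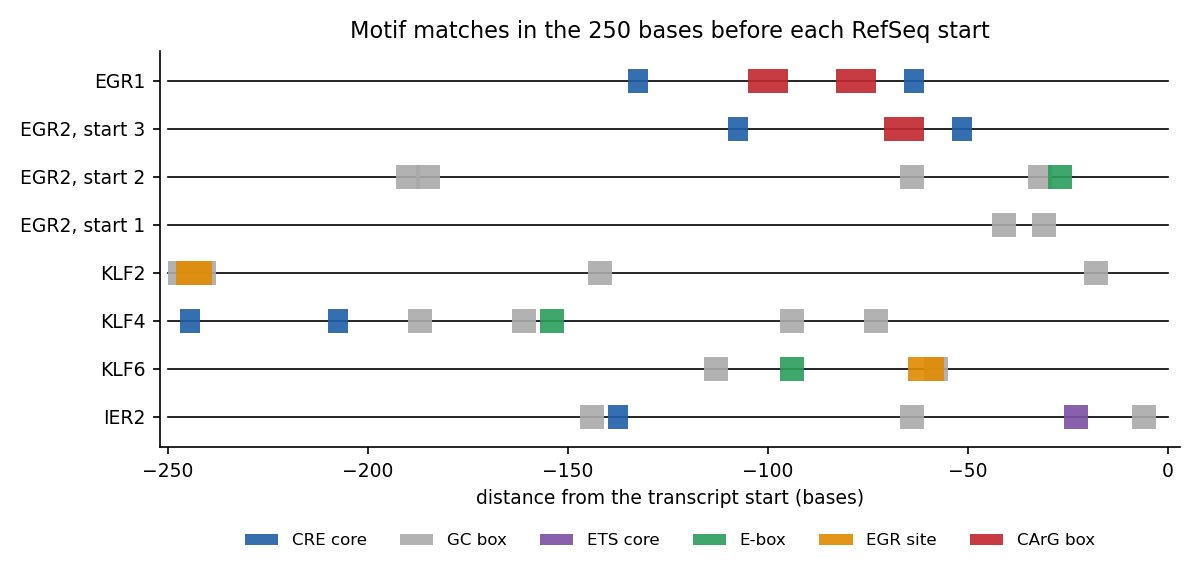
Motif matches on either strand in the 250 bases before each RefSeq start of 6 members; the x axis is the distance from the start in bases, and each bar is 1 match. CArG boxes (red) stand in EGR1 and in start 3 of EGR2, where EGR1 has 2 and EGR2 has 1.

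Values are FPKM (fragments per kilobase of transcript, scaled to the mapped fragments of each library), which allows levels of different genes to be set side by side. Differences are log2((FPKM+1)/(FPKM+1)), and a gene counted as higher or lower from 1 upward, a 2-fold difference on this scale. Such counts used genes whose mean over the libraries was 1 FPKM or more, which left 11327 genes and 9 of the 10 members. EGR3 did not pass. No member had exons that overlapped another measured gene by 100 bp or more, or a near-identical copy among measured transcripts. The libraries summed to between 429399 and 546754 FPKM, highest in TGF-b1, and the depth is only estimated, at 19.8 to 20.6 M fragments. Scaling the libraries to the same total moved the median of all genes by -0.26 for TGF-b1 against DMSO and by 0.29 for TGF-b1+DP against TGF-b1. In TGF-b1 against DMSO the 1411 genes with the shortest transcripts had a median of 0.43 and the 1410 with the longest a median of -0.47. With DP against TGF-b1 these were -0.62 and 0.48. Each member below is therefore also given after adjustment for transcript length and GC wherever that changed its side of the threshold or its sign.

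The cells were checked against markers of their label. Of 13 stellate cell and fibroblast markers, 9 were at 1 FPKM or more in DMSO and in TGF-b1 and 8 with DP. VIM, vimentin, was at 1936, 2734 and 2800 FPKM across DMSO, TGF-b1 and TGF-b1+DP. LRAT, the retinol esterifying enzyme of quiescent stellate cells, was at 0.04, 0.04 and 0.06 and DES, desmin, at 0.03, 0 and 0.03. Of the 9 markers that passed the filter, 5 were at least 1 higher in TGF-b1 than in DMSO and none lower. All kept genes had shares of 2.31% and 6.73%. With DP against TGF-b1, ACTA2 (-3.34) and SPARC (-1.25) were lower and none higher, against 4.26% and 6.19%. Across the 3 libraries ACTA2 was at 21.1, 78.1 and 6.79 FPKM, SPARC at 269.5, 880 and 370, and TIMP1 at 271, 1111 and 1717. The exons of ACTA2 overlap FAS. The 5 hepatocyte markers in the table summed to 0.03 to 0.26 FPKM. The 5 endothelial markers summed to 1.20 in DMSO, 1.17 under TGF-b1 alone and 3.62 with DP, where TEK was at 1.78 and PECAM1 at 1.71. The other endothelial markers, VWF, CDH5 and STAB2, were at 0.18 or less in each library and none was higher with DP than in DMSO. The 4 cholangiocyte markers summed to 10.6 to 21.3, nearly all from SOX9 and KRT7. The 4 macrophage markers in the table summed to 54.4 in DMSO, 26.0 under TGF-b1 alone and 57.5 with DP, of which CD68 was 48.5, 21.3 and 54.8. CD14 was at 4.77, 2.94 and 0.96, CSF1R at 0.48, 1.25 and 1.52, and PTPRC at 0.58 or less. In such bulk samples, fewer cells that make a transcript and less of it in each cell cannot be told apart.

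The early genes did not form a single pattern across the 3 libraries. In all, 6 of the 10 members were highest in TGF-b1 (EGR1, EGR2, KLF2, KLF4, KLF10 and MYC), 3 with DP (IER2, IER3 and KLF6) and EGR3 in DMSO. EGR2 and MYC were at least 1 higher in TGF-b1 than in DMSO on the log2 scale, as were 2.31% of all kept genes. With DP added, EGR2 and KLF10 were at least 1 lower than in TGF-b1 alone, as were 4.26% of genes, and IER3 at least 1 higher, as were 6.19%. IER3 was the most abundant member in each library and EGR3 the least.

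**Figure D2:**
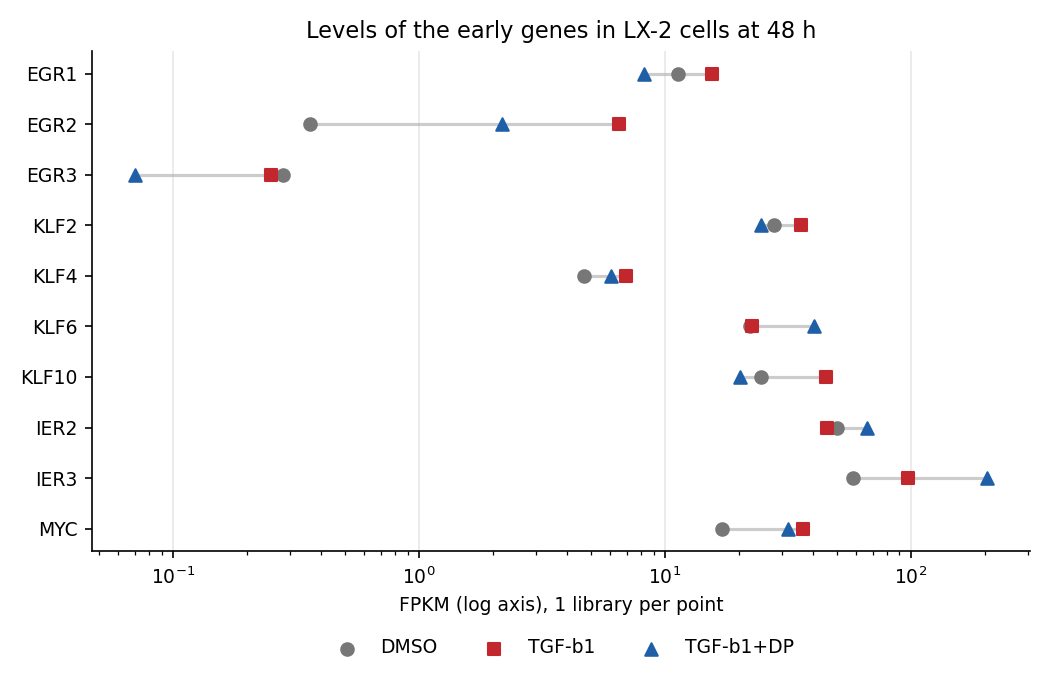
FPKM (log axis) of the 10 members in DMSO (grey circles), TGF-b1 (red squares) and TGF-b1+DP (blue triangles), 1 library per point, with a grey line from the lowest to the highest. EGR2 spans 0.36 to 6.54 FPKM and IER3 58.4 to 204.57, while KLF2 and KLF4 stay close together.

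Among the EGR factors, EGR2 differed most. EGR2, a zinc finger factor needed for myelination by Schwann cells and known to rise with TGF-beta in human skin fibroblasts, was at 0.36 FPKM in DMSO, 6.54 under TGF-b1 alone and 2.17 with DP. TGF-b1 was the highest library and DMSO the lowest. The ratio of FPKM in TGF-b1 to DMSO was 18.2, and the log2 difference 2.47, with 0.168% of all kept genes at that difference or above. With DP the log2 difference from TGF-b1 was -1.25, and 1.46% of genes were at or below it. With the same total FPKM it was -0.97. The level with DP was still 1.22 above DMSO on the log2 scale. The DMSO value is low and corresponds to about 22 fragments, against about 384 and 133 in the other libraries, if the estimated depth is right.

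EGR1, a factor that serum and growth factors induce, was the more abundant paralog in each library. It was at 11.4 FPKM in DMSO, 15.6 under TGF-b1 alone and 8.20 with DP. The order was the same as for KLF2 and KLF10, with TGF-b1 highest and DP lowest. Its log2 differences were 0.42 for TGF-b1 against DMSO, -0.85 for DP against TGF-b1 alone, and -0.43 for TGF-b1+DP against DMSO, all short of 1. The EGR1 level was 31.6 times that of EGR2 in DMSO, 2.38 times in TGF-b1 and 3.78 times with DP.

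EGR3 was near the lower limit of the table, at 0.28 FPKM in DMSO, 0.25 under TGF-b1 alone and 0.07 with DP. These values correspond to about 25, 21 and 6 fragments, and the sign of its difference between TGF-b1 and DMSO changed with the length and GC adjustment (-0.03 and 0.22). EGR4 was listed at 0 in each library.

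Partners of the EGR proteins and a factor of like motif were also read. NAB1 and NAB2 are corepressors that bind EGR proteins, and WT1 is a factor that shares the EGR motif. NAB1 was at 10.1, 10.5 and 18.2 FPKM across DMSO, TGF-b1 and TGF-b1+DP, a log2 difference of 0.74 for DP against TGF-b1 and 0.79 for DP against DMSO. NAB2, itself a target of EGR factors, was at 19.9, 16.0 and 17.4, and WT1 at 5.12, 7.16 and 6.71. None of the 3 reached 1 in any comparison, where 2.31% to 6.73% of all kept genes did so per direction.

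Of the 4 KLF members, KLF10 and KLF6 had the largest differences between DP and TGF-b1, in unlike directions. KLF10 was first named as a TGF-beta inducible early gene and acts on SMAD7 and SMAD2 transcription. It was at 24.5 FPKM in DMSO, 45.2 under TGF-b1 alone and 20.2 with DP, highest in TGF-b1 and close to DMSO with DP. The ratio of FPKM in TGF-b1 to DMSO was 1.84 (log2 difference 0.86), which reached 1.03 under median-of-ratios scaling. With DP the FPKM ratio to TGF-b1 was 0.448, and the log2 difference -1.12 both as deposited and after adjustment for length and GC. With the same total FPKM that difference was -0.78. Against DMSO the DP library was at -0.26.

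KLF6, a factor studied in activated stellate cells since it was cloned from them in the rat, was at 22.2 FPKM in DMSO, 22.7 under TGF-b1 alone and 40.3 with DP. DMSO and TGF-b1 lay together and the DP library stood above both. The difference between TGF-b1 and DMSO was 0.03, and its sign changed with scaling (-0.26 to 0.21). The log2 difference of DP was 0.80 from TGF-b1 and 0.83 from DMSO, and the first reached 1.14 with the same total FPKM. Of all kept genes, 10.2% were at or above 0.80 in the first comparison and 3.25% at or above 0.83 in the second.

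KLF2 and KLF4, factors best known for the quiescent endothelium and for pluripotency and epithelial barriers, differed little. KLF2 was at 27.8 FPKM in DMSO, 35.6 under TGF-b1 alone and 24.6 with DP. KLF4 was at 4.68, 6.93 and 6.02. Their log2 differences lay between -0.52 and 0.48 in the 3 comparisons. The sign changed with the processing for KLF2 in TGF-b1+DP against DMSO (-0.17 as deposited, 0.02 after length and GC adjustment). It also changed for KLF4 in TGF-b1+DP against TGF-b1 (-0.18 as deposited, 0.13 with the same total). The summed level of the 5 endothelial markers was highest in the DP library, where KLF2 was lowest, and their part in its level was not tested. That sum rests on TEK and PECAM1, while VWF and STAB2 were highest in DMSO and CDH5 was equal in DMSO and with DP.

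The other 13 KLF genes give the family as a whole. Of these, 8 passed the filter, and for TGF-b1 against DMSO none reached 1 in either direction. Of all kept genes, 2.31% were higher and 6.73% lower in that comparison. The median of the 8 was -0.27, against -0.10 for all genes. All 8 were below 0 as deposited, from KLF13 (-0.84) and KLF12 (-0.71) to KLF7 (-0.10) and KLF5 (-0.06). After length and GC adjustment KLF7 was at 0.20 and the other kept genes stayed below 0. KLF13 was then at -0.15 and KLF12 at -0.53, and the median was -0.17. For DP against TGF-b1 KLF13 was higher and none lower, against 6.19% and 4.26% of all kept genes. KLF13 was at 14.3 FPKM in DMSO, 7.53 under TGF-b1 alone and 21.2 with DP (log2 difference 1.38). KLF16 was at 18.5, 11.1 and 21.2 FPKM (0.88). The median of the 8 was 0.32 as deposited and -0.01 after adjustment for length and GC. No member of the list then reached 1, against 3.32% of genes higher and 2.45% lower. KLF10, KLF2 and KLF6 had the highest means of the KLF genes, and KLF1, KLF8, KLF14, KLF15 and KLF17 were at 0.15 FPKM or less in each library.

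**Figure D3:**
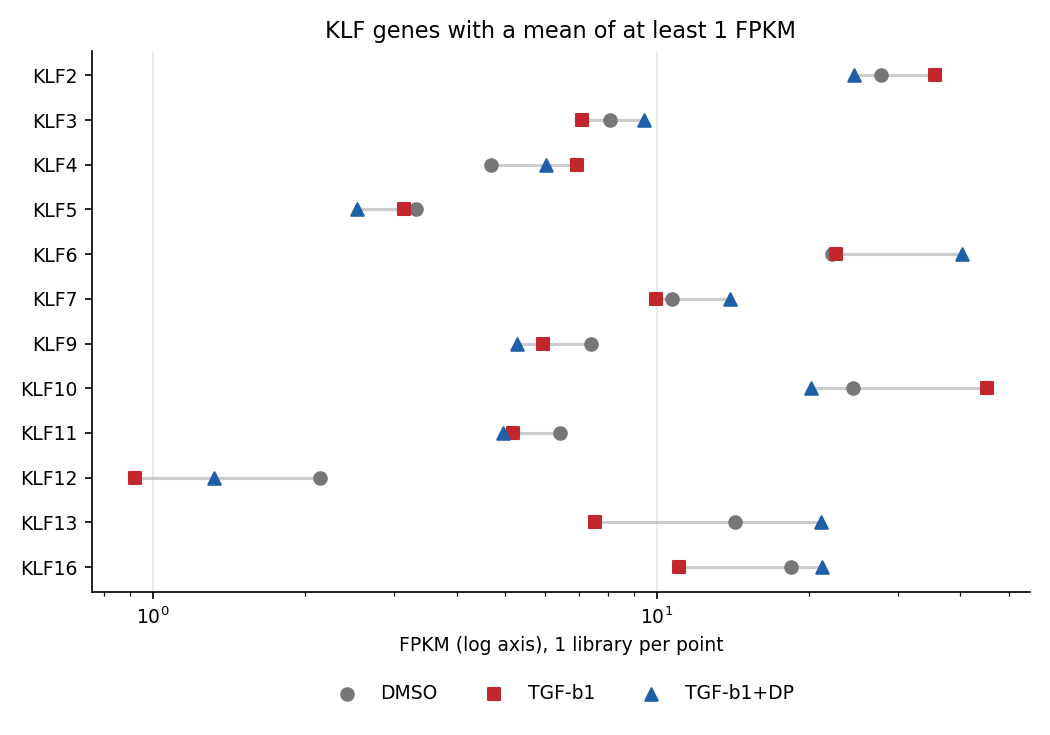
FPKM (log axis) of the 12 KLF genes whose mean was 1 FPKM or more, in DMSO (grey circles), TGF-b1 (red squares) and TGF-b1+DP (blue triangles), 1 library per point. KLF10 and KLF2 are highest in TGF-b1, KLF6 with DP, and KLF13 and KLF16 are lowest in TGF-b1.

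IER3 had the largest log2 difference between TGF-b1+DP and DMSO among the 10 members at a pseudocount of 1 FPKM (1.79, and 1.22 for EGR2). At a pseudocount of 0.1 FPKM EGR2 was larger (2.30, and 1.81 for IER3), and the ratio of FPKM was 6.03 for EGR2. IER3 is a stress and NF-kB response gene whose small membrane protein affects cell survival and ERK signalling. It is encoded on chromosome 6 (30743199 to 30744554, GRCh38, minus strand) by a transcript of 1350 bases, the shortest among the members. It was at 58.4 FPKM in DMSO, 97.1 under TGF-b1 alone and 204.57 with DP, lowest in DMSO and highest with DP. The ratio of FPKM with DP was 3.51 to DMSO and 2.11 to TGF-b1.

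The log2 difference of IER3 was 0.73 for TGF-b1 against DMSO, 1.07 for DP against TGF-b1 and 1.79 for DP against DMSO. In the last comparison 0.839% of all kept genes were at that value or above. After adjustment for length and GC the 3 differences were 0.43, 1.5 and 1.92. Under upper-quartile scaling the second was 0.99, just short of 1.

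IER2, a nuclear protein of the first serum response, was at 50.1 FPKM in DMSO, 45.9 under TGF-b1 alone and 66.4 with DP. The DP library was highest, with a log2 difference of 0.52 from TGF-b1 and 0.40 from DMSO. The difference between TGF-b1 and DMSO was -0.12 and became 0.15 after length and GC adjustment. IER5, a relative that acts on heat shock factor 1, had the same order at 54.7, 42.9 and 57.7 FPKM. IER5L was at 2.57, 4.25 and 1.01, a log2 difference of -1.39 for DP against TGF-b1.

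MYC was higher in both libraries with TGF-b1 than in DMSO. In epithelial cells TGF-beta is known to repress MYC. Here MYC was at 17.1 FPKM in DMSO, 36.5 under TGF-b1 alone and 31.8 with DP. The ratio to DMSO was 2.13 in TGF-b1 and 1.86 with DP, and the log2 differences 1.05 and 0.86. The first was 0.76 with the same total FPKM and 1.23 under median-of-ratios scaling, and the second 1.01 under the latter. The difference between DP and TGF-b1 was -0.19, and its sign changed with scaling (-0.27 to 0.15).

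Genes of the network around MYC and its partner MAX were counted as a list. Of 11 such genes 10 passed the filter. For TGF-b1 against DMSO none was higher by 1 and 1 was lower, against 2.31% and 6.73% of all kept genes. The lower gene was MGA, a large MAX partner (5.54 and 2.16 FPKM, -1.05, and short of -1 after length and GC adjustment). MAX was at 46.2, 47.1 and 54.2 FPKM across DMSO, TGF-b1 and TGF-b1+DP. With DP, MXD3, which competes with MYC for MAX, was at 10.6 FPKM against 29.9 in TGF-b1 (-1.42) and 34.9 in DMSO (-1.64). The value of MXD3 is uncertain because its exons overlap PRELID1 and RAB24. The list median was -0.15 for TGF-b1 against DMSO and 0.11 for DP against TGF-b1.

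Genes known as MYC targets in ribosome making, nucleotide supply and metabolism were counted as a list of 24. For TGF-b1 against DMSO 1 was higher, 1 lower and 22 within 1, where 2.31% of all kept genes were higher and 6.73% lower. The list median was 0.37, against -0.10 for all genes. The median was 0.07 with the same total FPKM and 0.12 after adjustment for length and GC. None of the 24 then reached 1 in either direction, against 1.65% and 2.51% of genes. NME1, a nucleoside diphosphate kinase, was at 153 and 355 FPKM (1.21, or 0.80 adjusted) but shares exons with the readthrough gene NME1-NME2. LDHA, lactate dehydrogenase A, was at 618 and 1183 (0.94), and CAD, which starts pyrimidine synthesis, at 23.0 and 10.7 (-1.04, or -0.30 adjusted). For DP against TGF-b1 LDHA was lower, at 506 FPKM with DP (-1.22, or -0.93 adjusted), and none was higher. In that comparison 4.26% of all kept genes were lower and 6.19% higher. After length and GC adjustment BOP1, a ribosome assembly factor, was higher (1.01, from 0.99) and none lower, against 3.32% and 2.45% of genes. The list median was -0.13, or 0.22 with the same total and 0.13 adjusted. For TGF-b1+DP against DMSO none of the 24 reached 1, where 2.45% of all kept genes were higher and 2.88% lower. The median was 0.22.

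For TGF-b1 against DMSO, 2 of the 9 kept members were higher (EGR2 and MYC) and none lower, where 2.31% of all kept genes were higher and 6.73% lower. The median of the 9 was 0.48 and that of all genes -0.10. Only KLF6, IER2 and EGR3 had a difference whose sign changed over scaling and length and GC adjustment. After that correction the count was again 2 higher and none lower, against 1.65% and 2.51% of genes.

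For TGF-b1+DP against TGF-b1, 1 of 9 was higher (IER3) and 2 were lower (EGR2 and KLF10), against 6.19% and 4.26% of all kept genes. The median of the 9 was -0.19, and that of all genes near 0. After adjustment for length and GC the same 3 genes were past the threshold, against 3.32% and 2.45% of genes. EGR1 (-0.85) and KLF6 (0.80) came nearest to it on the other side.

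For TGF-b1+DP against DMSO, 2 of 9 were higher (EGR2 and IER3) and none lower, against 2.45% and 2.88% of all kept genes. After adjustment for length and GC they were again 2 and none, against 2.41% and 2.48%. The median of the 9 was 0.40 and that of all genes -0.10. MYC (0.86) and KLF6 (0.83) were the next highest. This comparison shares a library with each of the other comparisons, so the 3 sets of differences are not independent.

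**Figure D4:**
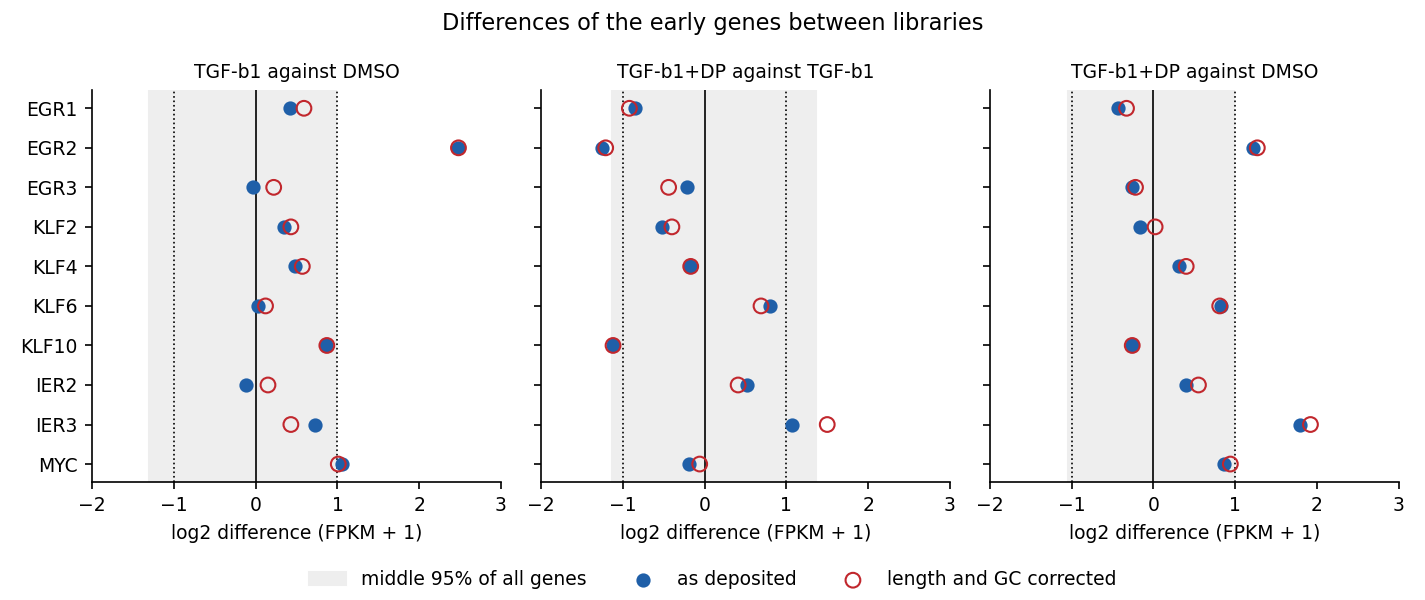
Log2 differences of FPKM + 1 for the 10 members in the 3 comparisons, as deposited (filled blue) and after adjustment for transcript length and GC (open red), with the middle 95% of all kept genes shaded and dotted lines at -1 and 1. As deposited, EGR2 stands outside the shaded range in each comparison, MYC only in TGF-b1 against DMSO and IER3 only in TGF-b1+DP against DMSO.

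Other immediate early genes, 31 in the list and 27 kept, also went different ways. For TGF-b1 against DMSO 4 were higher (JUNB, GADD45B, TRIB1 and DUSP1) and 3 lower (FOSL1, TNFAIP3 and PPP1R15A), with a median of 0.27, or 0.00 with the same total FPKM. After length and GC adjustment 5 were higher and 2 lower, against 1.65% and 2.51% of genes. JUNB, an AP-1 subunit and SMAD target, was at 24.7 FPKM in DMSO, 85.8 under TGF-b1 alone and 65.0 with DP, and overlaps HOOK2. FOSL1, another AP-1 subunit, was at 209, 72.3 and 144. FOS, the best known serum response gene, was at 0.57, 0.68 and 0.41 FPKM and was below the filter with FOSB, NR4A2 and NR4A3.

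With DP 5 of the 27 were higher than in TGF-b1 and none lower as deposited, against 6.19% and 4.26% of all kept genes. The 5 were TNFAIP3, PPP1R15A, MAFF, NFKBIZ and NR4A1. After length and GC adjustment 6 were higher, with FOSL1 (1.27) and CCN1 (1.08) in and NR4A1 out, and ZFP36L2 was lower (-1.14). The shares of all genes were then 3.32% higher and 2.45% lower. TNFAIP3, an inhibitor of NF-kB signalling that NF-kB induces, was at 12.4, 4.78 and 36.5 FPKM across DMSO, TGF-b1 and TGF-b1+DP (log2 difference 2.70 for DP against TGF-b1). MAFF, a small MAF factor, was at 8.69, 12.8 and 42.8 (1.66), an order like that of IER3. ZFP36L2, an RNA-binding protein that destabilises transcripts, was the lowest at 26.7 and 13.01 FPKM (-0.98 as deposited).

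Against DMSO 7 of the 27 were higher with DP and none lower, where 2.45% of all kept genes were higher and 2.88% lower. The 7 were led by MAFF (2.18) and TRIB1 (1.90). The list median was 0.58 and that of all genes -0.10. Adjustment for length and GC gave 8 higher, 0 lower and a median of 0.68, where 2.41% of genes were higher and 2.48% lower. The lowest were ZFP36L2 (-0.84) and FOSL1 (-0.53).

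**Figure D5:**
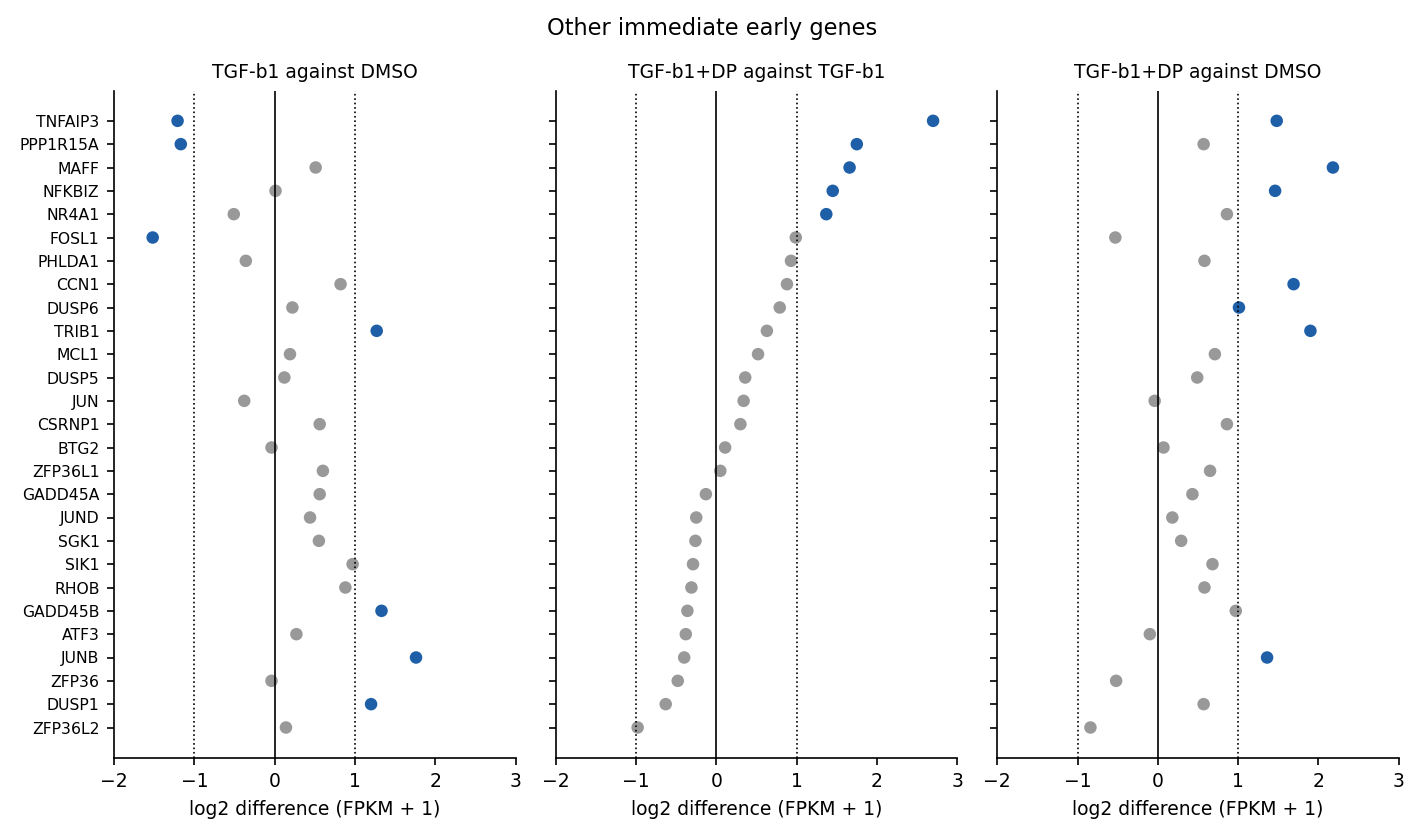
Log2 differences of FPKM + 1 for 27 other immediate early genes, ordered by DP against TGF-b1, with values at or beyond 1 in blue and dotted lines at -1 and 1. TNFAIP3, PPP1R15A, MAFF, NFKBIZ and NR4A1 lie above 1 for DP against TGF-b1, and none lies at or below -1 there in the values as deposited, which the plot shows.

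Known targets of EGR1 and of KLF factors were read beside the factors. Of 11 EGR1 targets 9 were kept. For TGF-b1 against DMSO TGFB1 (1.33) and PDGFA (1.04, or 0.95 after length and GC adjustment), genes of growth factors, were higher and none lower. The shares of all kept genes were 2.31% and 6.73%. The median of the 9 was -0.20, against -0.10 for all genes, and HPSE (-0.65) and ICAM1 (-0.58) were lowest. TGFB1 overlaps HNRNPUL1. With DP against TGF-b1, ICAM1 (1.73), PDGFB (1.03) and HPSE (1.02) were higher and F3, tissue factor, was lower at 31.4, 27.2 and 12.6 FPKM across DMSO, TGF-b1 and TGF-b1+DP (-1.05). The shares of all kept genes for DP against TGF-b1 were 6.19% and 4.26%, and the median of the 9 was 0.12. After length and GC adjustment 1 of the 9 was higher and none lower, against 3.32% and 2.45% of genes. EGR1 itself was lowest with DP.

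Of 9 KLF targets 5 were kept. SMAD7 was the only one to reach 1, in both comparisons with DMSO, where 2.31% and 2.45% of all kept genes were higher. The median of the 5 was -0.14 for TGF-b1 against DMSO, against -0.10 for all genes. For DP against TGF-b1 it was 0.31, or -0.04 after length and GC adjustment. SMAD7, the inhibitory SMAD and a gene that KLF10 is known to repress, was at 7.88 FPKM in DMSO, 18.8 under TGF-b1 alone and 23.5 with DP, a log2 difference of 1.15 for TGF-b1 against DMSO and 1.47 for DP against DMSO. CDKN1A, a cell cycle inhibitor that KLF4 and KLF6 are known to activate, was at 22.8, 17.5 and 22.2. The endothelial KLF2 targets NOS3 and THBD were at 1.05 FPKM or less in each library. S1PR1, also in the list, was at 3.29, 2.22 and 1.48 FPKM across DMSO, TGF-b1 and TGF-b1+DP. It was the lowest of the 5 in each comparison, at -0.41 for TGF-b1 against DMSO, -0.38 for DP against TGF-b1 and -0.79 for DP against DMSO.

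The genes whose differences lay nearest those of EGR1, IER3 and MYC were found by distance in a plane of 2 log2 differences, TGF-b1 against DMSO and DP against TGF-b1. With only 3 libraries, many genes lie close to any pattern. The distances used values as deposited, without length and GC adjustment. Nearest EGR1 were NDUFB7, DPH7, PSMG3, TMEM134 and ENDOG, at distances of 0.006 to 0.028. NDUFB7 (531 bases), ENDOG (1172), PSMG3 (1391) and DPH7 (1847) have shorter transcripts than EGR1 (3138), and TMEM134 (3534) a longer one. The part of transcript length in this likeness was not tested. ENDOG overlaps SPOUT1. Nearest IER3 were APCDD1L, AEBP1, MICAL2, CCN1 and TBX3, at 0.129 to 0.214, and CCN1, a secreted matrix protein and immediate early gene, was at 163, 288 and 529 FPKM. Nearest MYC were DNAJB4, CALM2, SLC19A2, PAWR and SIK1, at 0.046 to 0.125, and SIK1, a kinase of the early response, was at 3.45, 7.74 and 6.14 FPKM.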

How the data were processed

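The authors deposited 1 table of FPKM values, 1 column per library, to 2 decimals, per the file headers. The submitters' processing notes name GRCh38.p13, BWA, Bowtie, Cufflinks and Cuffdiff; roles, versions, strand and filters were not given in the sources used here. Of 17596 lines, 20 held no gene and were left out. Values were used as deposited, with a pseudocount of 1 FPKM, a filter at a mean of 1 FPKM and a threshold of 1 (log2). Transcript length, GC content and exons came from GENCODE 29 (longest transcript by Entrez ID, 17336 genes). The length and GC adjustment subtracted a quadratic fit over 11280 kept genes and kept their median. Shared reads meant at least 100 bp of exon overlap or 200 bases at 97% identity (minimap2 2.31). In transcripts under 2.5 kb, low FPKM times length clustered weakly at multiples of 0.0486 to 0.0506, and the depth is the inverse of that step. Fragments per gene are rough, since the transcript lengths the authors used were not given in the sources used here. The members and the 15 gene lists were chosen with earlier results of these data known. The rule for named genes took all members, the 2 highest and 2 lowest of each list per comparison, and the 5 genes nearest EGR1, IER3 and MYC among genes reaching 5 FPKM. The members and nearest genes are all printed; of the list genes only some are, and that choice, and any gene outside the rule, was made after their values were seen. The procedure was run on simulated data with counting noise only, where the changed genes were at 5 FPKM or more. That run held no variation between like libraries, so it does not bear on the lack of replicates or on low genes. Python 3.11.15, numpy 2.4.6, pandas 2.3.3 and matplotlib 3.10.9 were used.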

Additional observations from a re-analysis of the deposited data

How the results depend on the processing

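No paired analysis was possible because each group was 1 library, and no library could be left out. Counts of members past the threshold depended on the settings as follows. For TGF-b1 against DMSO, 1 member was higher with a pseudocount of 5 FPKM, with a filter at 5 FPKM and with the same total FPKM, 3 under median-of-ratios scaling (KLF10 added) and 4 at a 1.5-fold threshold, against 2. For TGF-b1+DP against TGF-b1, the number higher was 2 with the same total, 0 under upper-quartile scaling and 2 at 1.5-fold, against 1. The number lower was 0 with a pseudocount of 5 FPKM, 1 with a filter at 5 FPKM, 0 with the same total and 3 at 1.5-fold (EGR1 added), against 2. For TGF-b1+DP against DMSO, 1 was higher with a pseudocount of 5 FPKM and with a filter at 5 FPKM, 3 under median-of-ratios scaling (MYC added) and 4 at 1.5-fold, against 2. The cause was not tested, except that the filter at 5 FPKM removes EGR2 and that a larger pseudocount shrinks differences, most for low genes. At a pseudocount of 5 FPKM MYC fell to 0.91 for TGF-b1 against DMSO, where EGR2 stayed past the threshold at 1.11. For TGF-b1+DP against TGF-b1 EGR2 was then at -0.69 and KLF10 at -0.99, and for TGF-b1+DP against DMSO EGR2 was at 0.42. No member past the threshold changed sign in any setting run. Counts over all genes moved too. Higher and lower genes for TGF-b1 against DMSO numbered 262 and 762 as deposited, 104 and 1564 with the same total, 583 and 487 under median-of-ratios scaling, 451 higher under upper-quartile scaling, 149 and 233 with a pseudocount of 5 FPKM, and 283 lower after length and GC adjustment. For TGF-b1+DP against TGF-b1 they were 701 and 483, 1434 and 125 with the same total, 281 and 264 with a pseudocount of 5 FPKM, and 374 and 276 after correction. For TGF-b1+DP against DMSO they were 278 and 326, 159 and 123 with a pseudocount of 5 FPKM, 206 lower with a filter at 5 FPKM and 215 lower under median-of-ratios scaling. A pseudocount of 0.1 FPKM gave 1211 and 533 lower genes against DMSO for TGF-b1 and TGF-b1+DP, and a 1.5-fold threshold gave 617 to 2363 genes per direction. EGR3, at under 0.3 FPKM, is limited by depth.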

Other observations

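Kinases and factors that act upstream of the early genes were counted as a list. Of 18 in the list 17 were kept, and for TGF-b1 against DMSO none reached 1. Of all kept genes, 2.31% were higher and 6.73% lower in that comparison. The median of the 17 was -0.34 as deposited and 0.08 after length and GC adjustment. ELK3, an ETS partner of SRF, was the highest at 27.8 FPKM in DMSO, 48.6 under TGF-b1 alone and 52.4 with DP (0.78 for TGF-b1 against DMSO). RPS6KA1, a kinase downstream of ERK, was the lowest at 20.0, 10.2 and 12.2 FPKM (-0.91). SRF was at 20.6, 20.0 and 28.8 FPKM. For DP against TGF-b1 MEF2D, a factor that acts on KLF2, was higher at 7.93 and 21.8 FPKM (1.35), as were 6.19% of all kept genes. MEF2D did not reach 1 after length and GC adjustment.

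The SP factors, which share GC boxes with the KLF proteins, did not reach 1 in any comparison. Between 2.31% and 6.73% of all kept genes did so per direction and comparison. SP1 was at 19.9, 11.5 and 16.9 FPKM across DMSO, TGF-b1 and TGF-b1+DP, a log2 difference of -0.74 for TGF-b1 against DMSO. SP3 was at 7.76, 8.11 and 7.29.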
